A study of Mus musculus with 12 samples.

Results

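The expression comparison between day 4 and day 0 covers every gene that the authors' deposited table lists for the input RNA of primary mouse keratinocytes, the cells of the epidermis, and it is read here across gene families outside the keratinocyte, cell cycle and amino acid programmes. Members were all genes with a line in that table, which means an adjusted p under 0.05 by DESeq2. There were 7978 such genes, out of 10751 genes named in any file of the series. The adjustment of the p-values implies that 14924 genes were tested, so 53.5% of tested genes were listed, 27.1% as higher and 26.4% as lower at day 4. With a change of at least 2-fold also required, 21.2% of tested genes remained.

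Cells came from the epidermis of newborn mice, split off the dermis with dispase, and had been kept until the third passage on 3T3 fibroblast feeders whose division mitomycin C had stopped, in serum medium of low calcium. The day 0 input group (3 libraries) was undifferentiated, and the day 4 input group (3 libraries) had been differentiated by raising calcium. Another 3 libraries per day were immunoprecipitated for N6-methyladenosine (m6A), a methyl mark inside mRNA. No strain, genotype or drug is named in the labels, and they do not say whether replicates were separate animals or cultures, so the p-values speak for the spread among these samples only, and that spread may be technical. The deposited table has 1 line per gene and no value per library, so levels per sample and the overlap of the groups are not reported here, and depth per library is unknown.

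Raising calcium in cultured keratinocytes is the standard way to start stratification: cadherins engage, cells stop dividing and move from a basal to a suprabasal state. Growth factor receptors, integrins, lipid and energy metabolism, and proteases with their inhibitors are all known to be remodelled along this path in skin. The family lists below hold the receptors, secreted proteins, transcription factors, enzymes, adhesion proteins, channels and signalling proteins through which such a change is usually described.

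Every value given with a gene is the log2 fold change of the authors' deposited table, day 4 over day 0, with the standard error (SE) of that table on the same scale. Where a gene's mean normalized count was under 100, that mean is given too. The table names no direction, so it was read from the m6A peak lists. Of 497 listed genes with peaks at day 4 only, 93.8% had a positive value, against 4.02% of 797 genes with peaks at day 0 only. RNA was measured per culture, so fewer cells of a type and less RNA per cell cannot be told apart.

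The balance of directions moved with the level of the genes. Among the 447 listed genes with a mean normalized count under 10, 85% were higher at day 4 (exact 95% interval 81.4 to 88.2) in the authors' deposited table. Between 10 and 100 the share was 61.6%, and from 100 to 1000 it was 44.7% of 3909 genes. The median SE fell from 1.31 under 10 to 0.11 between 1000 and 10000. Low genes were therefore mostly rises with wide errors, and family counts are given again over members with a mean of at least 100 wherever that changes their balance. At that level 46.3% of all 6404 listed genes were higher.

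**Figure D1:**
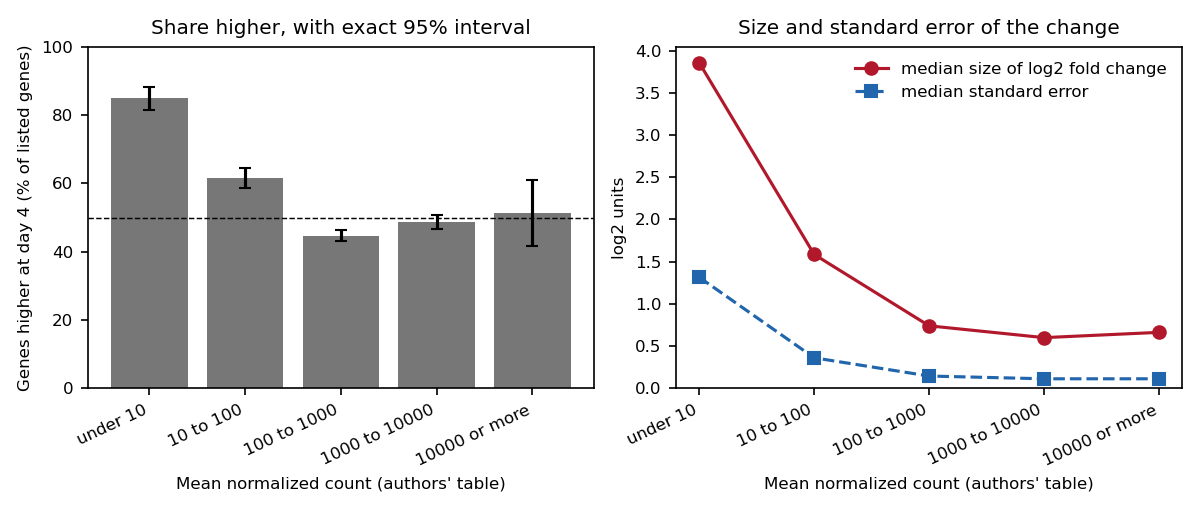
Left, share of listed genes higher at day 4 by mean normalized count, with exact 95% intervals that cover counting over genes only. Right, median size of the log2 fold change and median standard error in the same bins. The share falls from 85% in the lowest bin to 44.7% between 100 and 1000, and the median standard error falls with it.

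The labelled cell type was checked against its markers, and 16 of 17 keratinocyte identity genes were listed, all with a mean of at least 100, 9 higher and 7 lower. In the authors' deposited table Krt5 (0.96, SE 0.09) and Krt14 (1.06, SE 0.11), keratins of the basal layer, and the adhesion protein Epcam (1.17, SE 0.10) were higher, and the epithelial master regulator Trp63 (-0.92, SE 0.11) and the basal integrin Itga6 (-0.99, SE 0.14) were lower. Of 18 fibroblast and feeder markers 5 were listed, 3 higher and 2 lower, and the only one with a mean of at least 100 was the collagen Col6a2 (-2.42, SE 0.21) in the authors' deposited table. Immune markers were listed for 4 of 16, led by Itgam (6.79, SE 1.27, mean 11.7), Csf1r (4.62, SE 0.67, mean 20.9) and Cd68 (-1.92, SE 0.23) in the authors' deposited table. Melanocyte and Merkel markers numbered 3 of 14 and endothelial and muscle markers 3 of 12, among them the contractile actin Acta2 (2.97, SE 0.12) in the authors' deposited table. Markers of simple and glandular epithelium stood on the higher side, 7 of 7 listed out of 14, with Krt19 (3.21, SE 0.13), Krt18 (2.97, SE 0.12), Krt8 (2.20, SE 0.12) and the lipid desaturase Scd1 (3.02, SE 0.17) in the authors' deposited table. Summed marker levels per group were not analysed here, and the part of these cell types in the results below was not tested.

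Across the 47 family lists, 1109 of 2508 genes were listed, 673 higher and 436 lower, or 60.7% higher against 50.6% of the whole table. With a mean of at least 100 the shares were 56.2% and 46.3%. More members were higher than lower in 37 lists and lower in 9, and 1 was split evenly. Above a mean of 100 these numbers were 29, 14 and 4. Members absent from the table had either missed the threshold or not been tested, so the listed share of a list, which ran from 15.9% to 73.2%, cannot be set directly against the 53.5% of tested genes. The metabolism lists had 125 higher and 143 lower, or 46.6% higher, near the 50.6% of the whole table. With a mean of at least 100 the shares were 42.7% and 46.3%. Receptors (136 and 67, 67% higher), secreted factors (66 and 29, 69.5%) and intracellular signalling (133 and 63, 67.9%) were higher on balance.

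**Figure D2:**
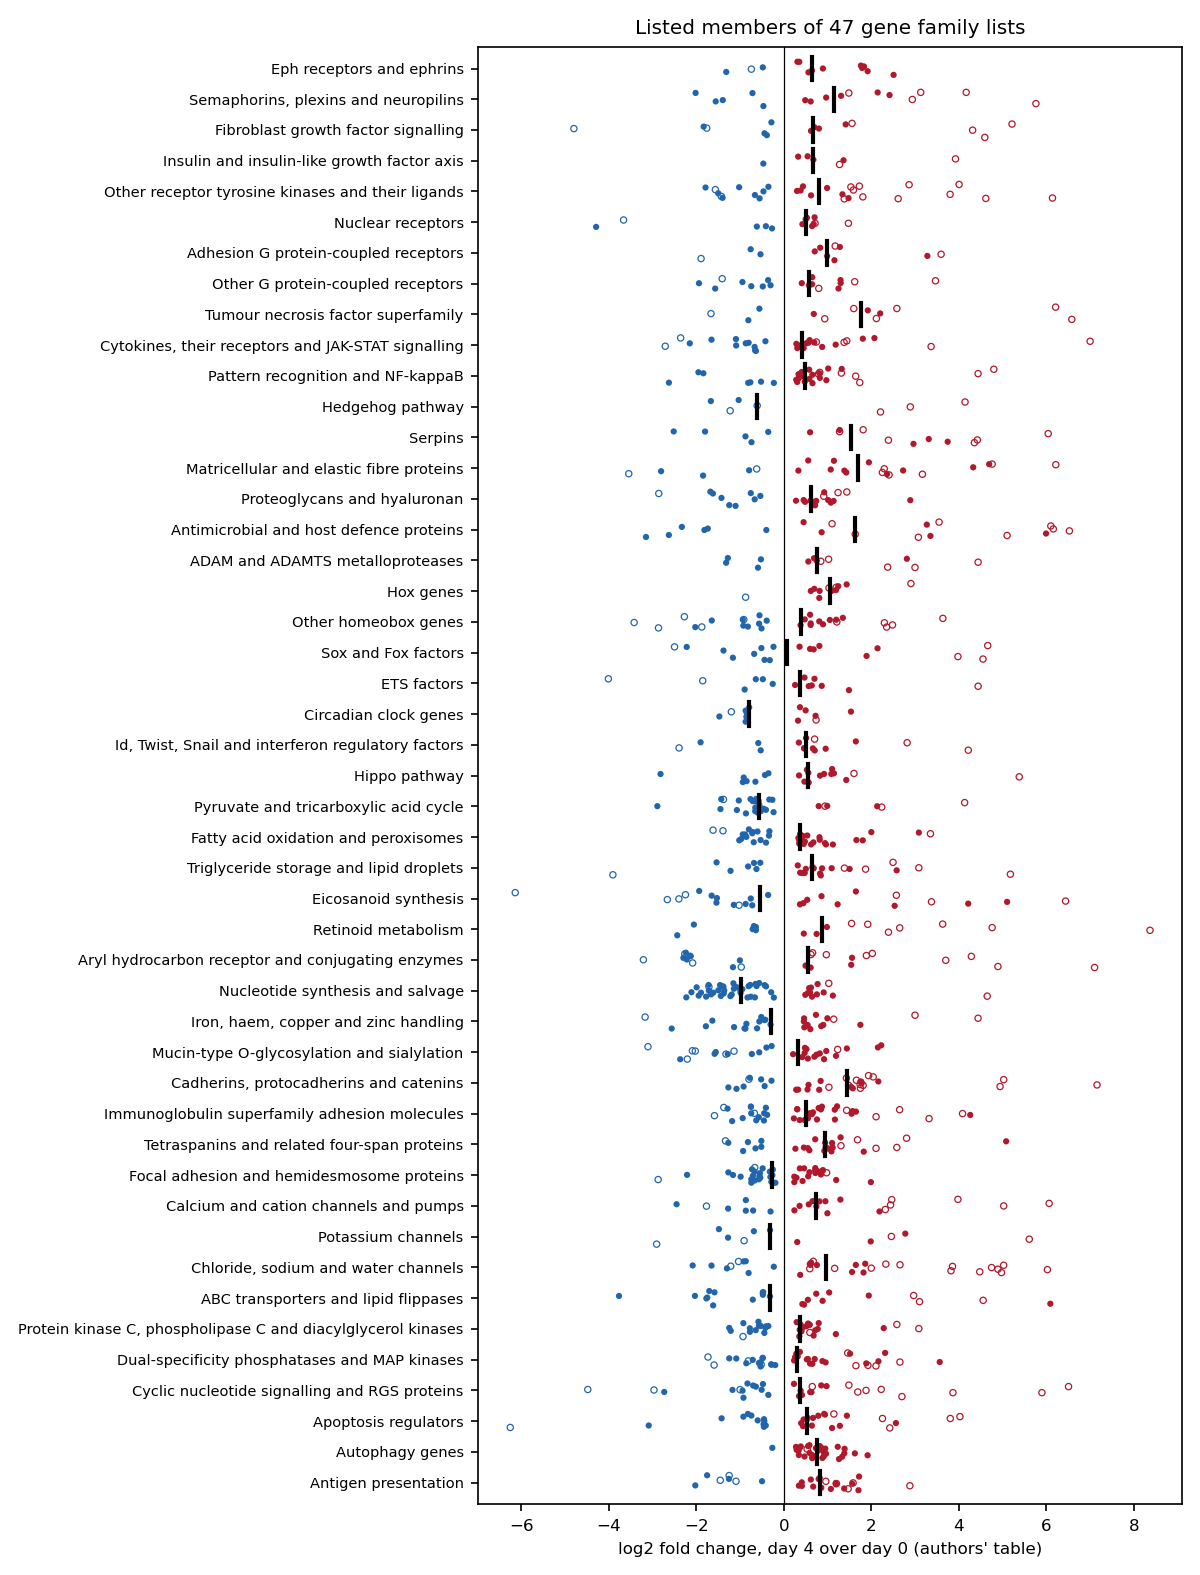
Each row is a gene family list and each point a listed member, placed at its log2 fold change from the authors' deposited table. Red is higher and blue lower at day 4, filled points have a mean normalized count of at least 100, open points less, and black bars are medians over listed members. Autophagy genes lie almost entirely to the right (36 of 37), and pyruvate and nucleotide genes mostly to the left (24 of 30 and 38 of 50).

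Over the whole table, the genes with the largest test statistics gave the outline of the comparison. The falls were led in the authors' deposited table by the amino acid transporter Slc7a5 (-4.57, SE 0.10), the growth factor neuregulin Nrg1 (-3.49, SE 0.10), cyclin D1 Ccnd1 (-3.37, SE 0.11) and the folate enzyme Aldh1l2 (-5.82, SE 0.19). Next in the authors' deposited table came the proline enzyme Aldh18a1 (-3.35, SE 0.11), the serine enzyme Psat1 (-2.14, SE 0.07), the copine Cpne2 (-2.51, SE 0.08), the sialomucin Podxl (-3.64, SE 0.13), the glutathione transferase Gsta1 (-3.44, SE 0.12) and the cytokinesis protein Anln (-3.09, SE 0.11). Nrg1 encodes a ligand of the ErbB receptors, and it was 11.2-fold lower at day 4 in the authors' deposited table. The rises were led by the secreted chaperone Clu (63.8-fold higher, SE 0.10 on the log2 scale) and the keratin Krt15 (4.57, SE 0.11), followed by Ctla2a (5.22, SE 0.13) and the atypical small GTPase Rhov (3.80, SE 0.10) in the authors' deposited table. Sciellin, a precursor of the cornified envelope (Scel, 4.68, SE 0.13), the eicosanoid enzymes Ptgr1 (4.22, SE 0.12) and Hpgds (5.11, SE 0.15), the matrix glycoprotein Tnc (4.33, SE 0.14), the sulfiredoxin Srxn1 (2.66, SE 0.09) and involucrin Ivl (3.67, SE 0.12) completed the 10 rises in the authors' deposited table.

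Genes of very high level also moved. Among those changed at least 2-fold in the authors' deposited table, the highest means belonged to Krt14 and to the nuclear noncoding RNA Malat1 (1.09, SE 0.13). Others higher were the desaturase Scd2 (2.03, SE 0.15), the calcium-binding protein S100a6 (2.04, SE 0.15) and Krt15 in the authors' deposited table. Lower ones were the poly(A)-binding protein Pabpc1 (-1.08, SE 0.10), the mitochondrial chaperone Hspa9 (4-fold lower, SE 0.12 on the log2 scale), the annexin Anxa8 (-2.08, SE 0.11), the integrin Itga3 (-1.38, SE 0.10) and the hemidesmosomal linker Plec (-1.27, SE 0.27) in the authors' deposited table.

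Eph receptors and their membrane-bound ephrin ligands signal between touching cells. All 6 listed receptors were higher, and the 7 listed ligands were divided, 4 higher and 3 lower, out of 22 members in all. The ligand Efnb2 (2.51, SE 0.13) had the largest rise in the authors' deposited table, followed by Efna4 (1.92, SE 0.10), Efna3 (1.83, SE 0.11) and the kinase-dead receptor Ephb6 (1.79, SE 0.13). In the other direction the authors' deposited table held Efna5 (-1.32, SE 0.17) and Efnb1 (-0.48, SE 0.11). The median over listed members was 0.64, and 0.77 with a mean of at least 100.

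Semaphorins, ligands of plexins and neuropilins that repel or attract moving cells, were also divided. Of 31 members 16 were listed, 11 higher and 5 lower, and with a mean of at least 100 the counts were 6 and 5. Class 4 members Sema4f (2.42, SE 0.12) and Sema4c (2.15, SE 0.15) rose in the authors' deposited table, as did both neuropilin co-receptors Nrp1 (1.31, SE 0.14) and Nrp2 (0.97, SE 0.13). The secreted Sema3c (-2.02, SE 0.13) and the membrane-anchored Sema7a (-1.56, SE 0.17) fell in the authors' deposited table.

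Growth factor axes outside the ErbB family moved at the level of ligands, receptors and inhibitors. In the fibroblast growth factor list 8 of 14 listed members were higher and 6 lower, out of 28, and 4 and 4 with a mean of at least 100. The feedback inhibitor Spry2 (1.41, SE 0.12), the ligand carrier Fgfbp1 (0.80, SE 0.10) and the decoy receptor Fgfrl1 (0.70, SE 0.19) rose in the authors' deposited table, and the inhibitor Spred2 (-1.83, SE 0.16) and the receptor Fgfr3 (-0.44, SE 0.13) fell. The hormone-like ligand Fgf21 (-4.80, SE 0.67, mean 34.5) had the largest fall of the list in the authors' deposited table. On the insulin-like growth factor axis, where 7 of 18 were listed, the binding protein Igfbp2 (1.37, SE 0.12), the adaptor Irs2 (0.68, SE 0.18) and the clearance receptor Igf2r (0.54, SE 0.14) were higher and the signalling receptor Igf1r (-0.47, SE 0.18) lower in the authors' deposited table.

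Other receptor tyrosine kinases and their ligands had 18 higher and 10 lower of 28 listed, and the balance turned to 7 and 8 with a mean of at least 100. The macrophage growth factors Csf1 (1.34, SE 0.23) and Il34 (0.99, SE 0.11) rose in the authors' deposited table. The scatter factor receptor Met (-1.40, SE 0.12), the angiogenic ligand Vegfa (-1.02, SE 0.08), the neurotrophic ligand Artn (-1.50, SE 0.24) and macrophage-stimulating protein Mst1 (-1.79, SE 0.15) were lower in the authors' deposited table. The platelet-derived ligand Pdgfb (4.01, SE 0.40, mean 52.8) was the steepest rise with an SE under 0.5 in the authors' deposited table, from a low level.

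Nuclear receptors, which turn lipids and hormones into transcription, changed little as a family. Of 45 members 13 were listed, 8 higher and 5 lower, and among the 3 changed at least 2-fold 1 was higher and 2 lower. The oxysterol receptor Nr1h2 (0.70, SE 0.15), the estrogen-related receptor Esrra (0.68, SE 0.16), the orphan Nr2f6 (0.65, SE 0.14) and the vitamin D receptor Vdr (0.53, SE 0.13) rose modestly in the authors' deposited table. The fatty acid sensor Ppard (-0.62, SE 0.16) fell, and the largest change of the list was the fall of Nr1h5 (-4.29, SE 0.25) in the authors' deposited table.

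Among G protein-coupled receptors, adhesion receptors were higher for 8 of 11 listed members, out of 30. The leukocyte-type receptor Adgre5 (3.28, SE 0.13) rose most in the authors' deposited table, before Adgrf4 (1.28, SE 0.12) and Adgrg1 (1.16, SE 0.14), and the planar polarity cadherin Celsr1 (-0.53, SE 0.16) and latrophilin Adgrl1 (-0.76, SE 0.16) fell. Receptors for lipids, nucleotides, proteases and peptides numbered 19 of 81, 11 higher and 8 lower. The sphingosine phosphate receptor S1pr2 (1.25, SE 0.12), the thrombin receptor F2r (1.30, SE 0.14) and the ATP receptor P2ry2 (1.30, SE 0.14) rose in the authors' deposited table. Both leukotriene B4 receptors, Ltb4r1 (-1.94, SE 0.21) and Ltb4r2 (-1.57, SE 0.19), fell in the authors' deposited table.

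Tumour necrosis factor superfamily members were listed for 12 of 45, 9 higher and 3 lower, but only 5 had a mean of at least 100, and the receptors among these were divided, 2 and 2. The decoy death receptors Tnfrsf23 (2.20, SE 0.15) and Tnfrsf22 (1.92, SE 0.17) rose and the death receptors Tnfrsf21 (-0.81, SE 0.14) and Tnfrsf10b (-0.56, SE 0.16) fell in the authors' deposited table. In the cytokine and JAK-STAT list 18 of 30 listed members were higher. Both chains of the interferon gamma receptor, Ifngr1 (1.81, SE 0.11) and Ifngr2 (0.88, SE 0.13), and the shared receptor chain Il10rb (1.19, SE 0.10) rose in the authors' deposited table together with Il17rd (2.07, SE 0.18). The cytokine Il24 (-2.15, SE 0.22), the growth hormone receptor Ghr (-1.65, SE 0.21) and the feedback inhibitor Socs2 (-1.09, SE 0.12) fell in the authors' deposited table.

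Pattern recognition and NF-kappaB genes were higher for 26 of 33 listed members and lower for 7, out of 70, and for 19 and 7 with a mean of at least 100. At that level adaptors and kinases were higher for 10 of 12, and receptors were divided, 2 and 2. The kinases Ripk2 (1.32, SE 0.15) and Ripk4 (1.01, SE 0.11), the mitochondrial receptor Nlrx1 (0.97, SE 0.15) and the transcription factor Relb (0.82, SE 0.15) rose in the authors' deposited table. The bacterial sensor Nod2 (-2.63, SE 0.17), the DNA sensor cGAS (Mb21d1, -1.95, SE 0.19) and the necroptosis kinase Ripk3 (-1.84, SE 0.13) fell in the authors' deposited table. Ripk2 acts directly downstream of Nod2, and the pair went opposite ways. Few Hedgehog genes were listed (7 of 21), with the transcription factors Gli3 (-1.67, SE 0.23) and Gli2 (-1.03, SE 0.17) lower in the authors' deposited table and the other 5 at means under 100.

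Serpins inhibit proteases, and clade B members act largely inside epithelial cells. Of 49 serpins 16 were listed, 11 higher and 5 lower, and with a mean of at least 100 the counts were 5 and 5. The rises with the smallest errors were Serpinb11 (3.75, SE 0.13), the plasminogen activator inhibitor Serpinb2 (3.31, SE 0.13), Serpinb8 (2.96, SE 0.11) and Serpinb6b (1.28, SE 0.10) in the authors' deposited table. Beside them Serpinb1a (-2.52, SE 0.15), an inhibitor of neutrophil proteases, and Serpinb10 (-1.80, SE 0.12) fell in the authors' deposited table. Clade B copies in mouse are near-identical in places (Serpinb1, Serpinb6 and Serpinb9 groups), so single members of those groups are uncertain. Several of these genes are neighbours on chromosome 1, and their upstream sequences are shown because the members that moved in opposite directions share a short motif there. The windows are the 250 bases before the annotated start in RefSeq (GRCm38.p6, read 5′ to 3′ on the gene's own strand, plus for all 4). Capitals mark matches to TGANTCA, the loose pattern searched here for AP-1. A match need not be an AP-1 site, since any base may stand at N. That base is A or T in the matches of Serpinb11, Serpinb2 and Serpinb10, and G in Serpinb8.
Serpinb11: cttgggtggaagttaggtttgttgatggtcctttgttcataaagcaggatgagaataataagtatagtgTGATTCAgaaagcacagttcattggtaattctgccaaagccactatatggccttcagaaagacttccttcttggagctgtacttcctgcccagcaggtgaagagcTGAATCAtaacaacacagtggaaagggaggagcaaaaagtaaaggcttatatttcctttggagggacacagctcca
Serpinb2: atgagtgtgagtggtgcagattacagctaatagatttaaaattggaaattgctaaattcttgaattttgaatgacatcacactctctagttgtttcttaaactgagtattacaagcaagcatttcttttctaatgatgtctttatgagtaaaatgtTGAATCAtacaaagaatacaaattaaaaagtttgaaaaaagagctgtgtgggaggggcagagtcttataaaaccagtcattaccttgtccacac
Serpinb8: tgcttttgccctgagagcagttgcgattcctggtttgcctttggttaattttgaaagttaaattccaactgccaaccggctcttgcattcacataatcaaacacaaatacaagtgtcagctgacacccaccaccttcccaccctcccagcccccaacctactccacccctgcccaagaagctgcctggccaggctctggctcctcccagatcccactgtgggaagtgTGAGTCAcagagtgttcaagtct
Serpinb10: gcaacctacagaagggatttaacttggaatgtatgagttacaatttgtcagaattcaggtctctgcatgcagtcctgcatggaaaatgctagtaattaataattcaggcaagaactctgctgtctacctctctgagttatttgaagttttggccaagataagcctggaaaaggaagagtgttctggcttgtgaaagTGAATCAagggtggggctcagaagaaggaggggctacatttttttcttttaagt
The windows lie at chr1:107362064-107362313 for Serpinb11, chr1:107511173-107511422 for Serpinb2, chr1:107589756-107590005 for Serpinb8 and chr1:107528753-107529002 for Serpinb10. The match nearest the start begins 76, 94, 23 and 54 bases before it in that order, and Serpinb11 holds 2 matches. Among the 14 promoter entries of listed clade B serpins 6 held the motif, in 5 genes (Serpinb7 is the fifth), or 42.9% against 6.75% of all 32851 promoter entries. The motif reads the same on both strands and does not overlap another motif searched. These genes were singled out after their values were seen, the entries of 1 gene overlap, and a match is a description of letters only.

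Matricellular and elastic fibre proteins, which tune how cells attach to matrix, were higher for 17 of 22 listed members and lower for 5, out of 57. Osteopontin (Spp1, 4.69, SE 0.20), tenascin C (Tnc), the skin matrix protein Ecm1 (2.73, SE 0.10) and thrombospondin Thbs1 (2.36, SE 0.34) led the rises in the authors' deposited table. Fibronectin Fn1 (1.07, SE 0.14) and the growth factor-like proteins Cyr61 (1.43, SE 0.12), Ctgf (1.15, SE 0.14) and Wisp1 (1.95, SE 0.16) were higher as well in the authors' deposited table. The fibulin Fbln1 (-1.85, SE 0.16) and the latent TGF-beta binding protein Ltbp4 (-2.81, SE 0.13) fell, while its relative Ltbp1 (1.39, SE 0.15) rose in the authors' deposited table. The balance held at a mean of at least 100, with 11 higher and 3 lower.

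Proteoglycans and hyaluronan enzymes were mixed, 16 higher and 9 lower of 25 listed. The glypican Gpc2 (2.89, SE 0.20), the syndecan Sdc2 (1.01, SE 0.13) and the hyaluronan-degrading enzymes Hyal1 (1.14, SE 0.09) and Tmem2 (1.08, SE 0.14) rose in the authors' deposited table. The betaglycan Tgfbr3 (-1.68, SE 0.25), the extracellular sulphatase Sulf2 (-1.62, SE 0.10), versican Vcan (-1.43, SE 0.16) and the basement membrane core protein perlecan (Hspg2, -1.25, SE 0.17) fell in the authors' deposited table.

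Antimicrobial and host defence proteins split between families. Higher members were 13 and lower members 6 of 19 listed, and with a mean of at least 100 the balance turned to 5 and 6. Beta-defensins Defb14 (3.27, SE 0.16) and Defb1 (0.86, SE 0.14) and the peptidoglycan recognition protein Pglyrp3 (3.35, SE 0.26) rose in the authors' deposited table, besides clusterin, which also restrains complement. All 4 peptidoglycan recognition genes in the table were higher, with Pglyrp1 (3.08, SE 0.44, mean 30.8), Pglyrp4 (1.63, SE 0.39, mean 27.7) and Pglyrp2 (5.10, SE 1.75, mean 2.21) at low means in the authors' deposited table. Whey acidic proteins and lipid-binding defence proteins went the other way, with Wfdc2 (-3.15, SE 0.21), Bpifc (-2.63, SE 0.16), Slpi (-2.33, SE 0.17), Lcn2 (-1.74, SE 0.13) and complement C3 (-1.82, SE 0.18) lower in the authors' deposited table.

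**Figure D3:**
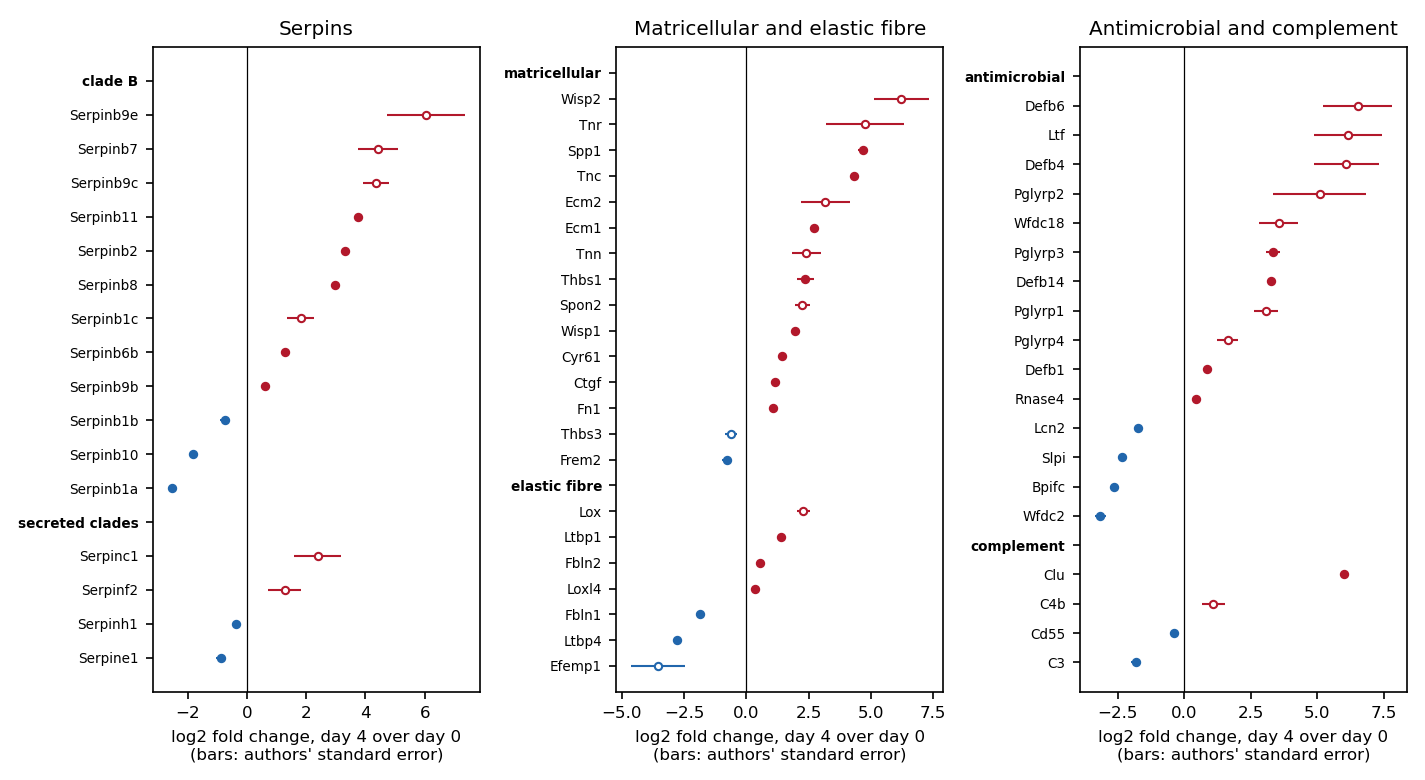
Listed serpins, matricellular and elastic fibre proteins, and antimicrobial and complement genes, each at its log2 fold change from the authors' deposited table with bars of 1 standard error. Filled points have a mean normalized count of at least 100, and several gene groups hold members on both sides of 0. Bars are wide for open points, such as Defb6 at 6.53 and Ltf at 6.16.

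ADAM and ADAMTS metalloproteases, which shed membrane proteins or cut matrix, were listed for 13 of 36 (9 higher and 4 lower, 4 and 4 with a mean of at least 100). The matrix-binding Adamtsl4 (2.81, SE 0.14), Adam12 (0.75, SE 0.11), Adam15 (0.69, SE 0.11) and the Notch and cadherin sheddase Adam10 (0.56, SE 0.13) rose in the authors' deposited table. Adam8 (-1.32, SE 0.10) and the abundant protease Adamts1 (-1.28, SE 0.11) fell in the authors' deposited table.

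Hox genes, which keep the body position of a skin site, moved together. Of 39 Hox genes 12 were listed and 11 were higher, including all 8 with a mean of at least 100. In the authors' deposited table Hoxa7 (1.44, SE 0.14), Hoxb4 (1.24, SE 0.20), Hoxa5 (1.19, SE 0.21) and Hoxb8 (1.09, SE 0.17) had the largest rises at that level. Hoxa3, Hoxa4, Hoxa5, Hoxa6, Hoxa7 and Hoxa9 are 6 neighbouring protein-coding genes, all higher. Overlapping transcripts of this cluster may share reads. The other homeobox genes had 15 higher and 14 lower. Meis3 (1.35, SE 0.14), Zfhx2 (1.20, SE 0.20) and Six4 (1.05, SE 0.20) rose, and the distal-less factors Dlx2 (-2.02, SE 0.20), Dlx1 (-2.87, SE 0.31, mean 59.5) and Dlx3 (-3.42, SE 0.65, mean 29.6) and the limb factor Pitx1 (-1.65, SE 0.21) fell in the authors' deposited table.

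Sox and Fox factors were evenly split, 9 higher and 9 lower of 18 listed, but 6 and 8 with a mean of at least 100. The hair follicle factor Sox9 (1.89, SE 0.14) and the embryonic factor Sox11 (2.14, SE 0.15) rose, and Sox12 (-1.38, SE 0.18), Sox15 (-2.50, SE 0.27, mean 96.6) and the proliferation factor Foxm1 (-2.22, SE 0.14) fell in the authors' deposited table. Both of the listed Foxo genes, Foxo1 (-0.51, SE 0.16) and Foxo3 (-0.44, SE 0.15), were lower by small amounts in the authors' deposited table. Among ETS factors (8 higher, 6 lower of 14) the epithelial members Ehf (1.49, SE 0.16) and Elf3 (0.87, SE 0.11) rose and Elf4 (-0.90, SE 0.14) and Ets2 (-0.64, SE 0.10) fell in the authors' deposited table. Known targets of growth factor signalling, Etv5 (-4.01, SE 0.31, mean 80.2) and Etv4 (-1.85, SE 0.29, mean 84.6), were lower in the authors' deposited table, at means under 100. Feedback inhibitors of that signalling went both ways, 2 higher (Spry2 and Spred3 (0.62, SE 0.15)) and 3 lower (Spred2, Spred1 (-0.39, SE 0.14) and Spry1 (-1.76, SE 0.51, mean 19.8)), and the phosphatase Dusp4 (3.56, SE 0.16) rose in the authors' deposited table.

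Circadian clock genes were listed for 13 of 25, 6 higher and 7 lower, or 46.2% higher against 50.6% of the whole table. All 3 listed kinase or ligase genes were higher. The activator Bmal1 (Arntl, -0.87, SE 0.10) and the repressors Per1 (-0.79, SE 0.12), Per2 (-0.85, SE 0.20), Cry1 (-0.87, SE 0.15), Cry2 (-0.86, SE 0.16) and Ciart (-1.47, SE 0.21) were all lower in the authors' deposited table. Higher were the repressor Bhlhe40 (1.53, SE 0.13), the kinase Csnk1e (0.73, SE 0.09) and, more weakly, Nr1d1 (0.50, SE 0.12) in the authors' deposited table. Each group is a single time of collection per day as far as the labels say, and the sources used here give no hour of collection. The 250 bases before the start of Ciart (minus strand), the repressor with the largest fall, and of Per1 (plus strand) are shown. Both were chosen since they hold the clock's E-box CACGTG, in capitals.
Ciart: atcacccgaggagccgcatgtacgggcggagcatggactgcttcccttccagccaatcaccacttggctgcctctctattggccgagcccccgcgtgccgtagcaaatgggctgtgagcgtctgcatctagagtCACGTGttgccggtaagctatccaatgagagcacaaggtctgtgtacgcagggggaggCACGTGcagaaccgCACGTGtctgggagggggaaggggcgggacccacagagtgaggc
Per1: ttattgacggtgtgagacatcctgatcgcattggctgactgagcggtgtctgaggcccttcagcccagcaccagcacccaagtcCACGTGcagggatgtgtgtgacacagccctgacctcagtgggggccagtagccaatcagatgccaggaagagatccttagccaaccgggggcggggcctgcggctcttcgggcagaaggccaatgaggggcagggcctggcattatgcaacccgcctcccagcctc
They lie at chr3:95882229-95882478 and chr11:69098699-69098948 (GRCm38.p6), with 3 matches in Ciart and 1 in Per1. Of 14 promoter entries of listed clock genes 3 held the E-box (21.4%, Cry1 being the third gene), against 6.02% of all entries. The D-box TTATGTAA was found in none of them on either strand, and in 0.819% of all entries.

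Basic helix-loop-helix, Snail and interferon regulatory factors had 11 higher and 4 lower of 15 listed. The pigment and lysosome regulator Mitf (1.65, SE 0.21), Id1 (0.96, SE 0.20) and the E-box factor Usf1 (0.71, SE 0.11) rose, and Tfap4 (-1.90, SE 0.19), a Myc target, and Snai2 (-0.58, SE 0.11) fell in the authors' deposited table. Interferon regulatory factors Irf2 (0.47, SE 0.13), Irf9 (0.51, SE 0.16) and Irf7 (2.82, SE 0.55, mean 21.1) were higher in the authors' deposited table.

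The Hippo pathway restrains the co-activators Yap and Taz, which bind DNA through TEAD factors. Of 37 members 21 were listed, 14 higher and 7 lower. Among TEAD factors Tead2 (1.10, SE 0.14) and Tead3 (0.47, SE 0.14) rose and Tead1 (-0.92, SE 0.17) and Tead4 (-0.85, SE 0.10) fell in the authors' deposited table. Upstream regulators Amotl2 (1.09, SE 0.11), Sav1 (0.92, SE 0.11) and Lats2 (0.83, SE 0.11) rose and Ajuba (-0.94, SE 0.09) and Ptpn14 (-0.65, SE 0.11) fell in the authors' deposited table. Known targets did not move as 1 group: Ankrd1 (5.38, SE 0.81, mean 21.5), Cyr61 and Ctgf were higher, and Axl (-0.35, SE 0.12) and the survivin gene Birc5 (-2.82, SE 0.12) lower in the authors' deposited table. The upstream window of Ankrd1, the target with the largest rise, is shown with its TEAD motifs GGAATG in capitals (minus strand, chr19:36119845-36120094, GRCm38.p6).
Ankrd1: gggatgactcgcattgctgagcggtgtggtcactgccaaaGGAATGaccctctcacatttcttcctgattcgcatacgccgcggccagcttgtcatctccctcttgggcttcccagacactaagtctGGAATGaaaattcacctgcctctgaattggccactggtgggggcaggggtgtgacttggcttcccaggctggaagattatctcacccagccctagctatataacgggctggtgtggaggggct
It holds 2 matches, the nearer 123 bases before the start. Among promoter entries of listed Hippo genes 13 of 21 held the motif on either strand (61.9%), against 12.6% of all entries. In the 100 bases before the start the count was 3 of 21 (14.3%), against 4.71%, and Ankrd1 was not among them. The 11 genes concerned went both ways, with Ajuba and Axl lower and Sav1 and Amotl2 higher.

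Genes of pyruvate use and the tricarboxylic acid cycle, which burns acetyl units in mitochondria, fell. Of 41 members 30 were listed, 24 lower and 6 higher, with a median of -0.57 against 0.26 over the whole table. At a mean of at least 100, 23 of 26 were lower, with a median of -0.59 against -0.32 over the whole table. Mitochondrial phosphoenolpyruvate carboxykinase Pck2 (-2.89, SE 0.14) fell most in the authors' deposited table, then Suclg2 (-1.45, SE 0.11), fumarase Fh1 (-1.43, SE 0.12) and malic enzyme Me2 (-1.07, SE 0.09). Most falls were modest, between -0.23 for Sdha and -0.76 for Dlst among the other cycle enzymes in the authors' deposited table. Both subunit genes of pyruvate dehydrogenase E1, Pdha1 (-0.65, SE 0.10) and Pdhb (-0.41, SE 0.12), were lower, and its inhibitory kinases Pdk4 (4.13, SE 0.66, mean 16.2) and Pdk2 (2.24, SE 0.28, mean 73.5) higher in the authors' deposited table. The 3 higher members with a mean of at least 100 were the cytosolic enzymes Idh1 (2.13, SE 0.12), which makes NADPH, and ATP citrate lyase Acly (0.99, SE 0.11), which makes acetyl units for lipid synthesis, and the pyruvate dehydrogenase phosphatase Pdp2 (0.80, SE 0.15), in the authors' deposited table. The mitochondrial isoenzymes Idh2 (-0.66, SE 0.11) and Idh3a (-0.58, SE 0.11) were lower in the authors' deposited table.

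Nucleotide synthesis and salvage genes also fell, 38 of 50 listed members out of 74, with a median of -0.97. The de novo purine pathway was lower at every listed step in the authors' deposited table, from Ppat (-1.46, SE 0.12) and Gart (-1.38, SE 0.09) through Pfas (-1.61, SE 0.14), Paics (-0.81, SE 0.11), Adsl (-1.15, SE 0.10) and Atic (-1.89, SE 0.10) to Impdh2 (-1.44, SE 0.11) and Adss (-1.99, SE 0.13). In the pyrimidine pathway Cad (-1.40, SE 0.10), Dhodh (-1.78, SE 0.18) and Umps (-1.37, SE 0.12) fell in the authors' deposited table, as did the thymidylate genes Tyms (-1.72, SE 0.14), Dut (-2.11, SE 0.19) and Dctd (-2.23, SE 0.13). The reductase subunits Rrm1 (-1.22, SE 0.09) and Rrm2 (-1.95, SE 0.09) fell in the authors' deposited table too. The 12 rises included the kinase Nme3 (1.12, SE 0.21), xanthine dehydrogenase Xdh (0.91, SE 0.13), the phosphorylase Pnp (0.65, SE 0.12) and the nucleotidases Nt5e (0.60, SE 0.11) and Nt5c (0.62, SE 0.13) in the authors' deposited table. Ccnd1, Anln, Foxm1 and Birc5, genes of dividing cells, fell in the same table, and the part of cell division in the nucleotide values was not tested.

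**Figure D4:**
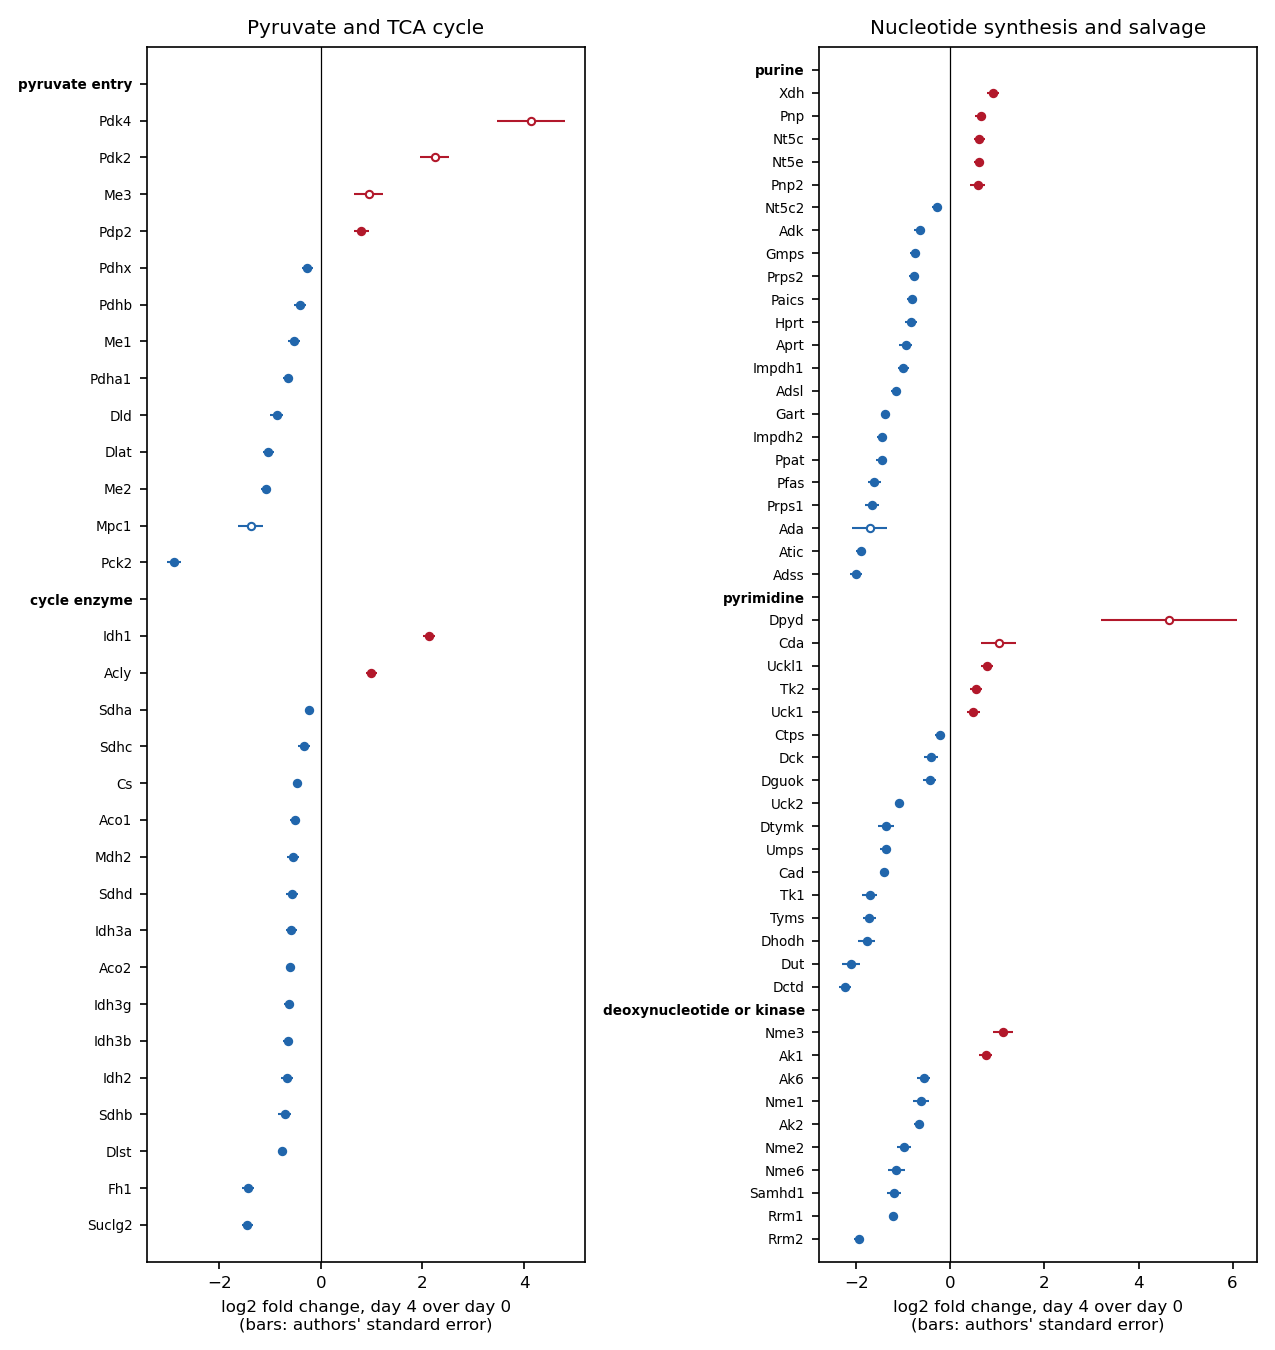
Listed genes of pyruvate and the tricarboxylic acid cycle (left) and of nucleotide synthesis and salvage (right), at their log2 fold changes from the authors' deposited table with bars of 1 standard error, for all but 1 listed nucleotide gene. Open points have a mean normalized count under 100. On the left Idh1, Acly and the pyruvate dehydrogenase kinases stand apart from the falls, and on the right the breakdown enzyme Xdh is on the higher side.

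Fatty acid oxidation and peroxisome genes had 24 higher and 16 lower of 40 listed. Activation and import enzymes were higher for 6 of 7, with Acss2 (3.09, SE 0.14), Crot (1.81, SE 0.09), Acsl3 (1.66, SE 0.11) and the carnitine transferase Cpt1a (1.12, SE 0.11) rising in the authors' deposited table. Mitochondrial oxidation enzymes were divided, 7 higher and 11 lower, with Acadm (0.82, SE 0.13) and Acaa2 (0.62, SE 0.10) higher and Acadsb (-1.02, SE 0.12), Acat1 (-0.97, SE 0.16) and Echs1 (-0.94, SE 0.12) lower in the authors' deposited table. Peroxisomal enzymes were divided too, 6 higher and 4 lower. The oxidase Acox3 (2.00, SE 0.11) rose, and all 5 listed peroxins were higher by small amounts, from 0.33 for Pex19 to 0.68 for Pex13 in the authors' deposited table. The ether lipid enzymes Far1 (-0.60, SE 0.12) and Agps (-0.80, SE 0.11) fell in the authors' deposited table.

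Triglyceride storage genes were higher for 18 and lower for 7 of 25 listed. The phosphatidate phosphatase Lpin1 (2.58, SE 0.20), the droplet coat Plin2 (1.09, SE 0.09) and the lipases Pnpla3 (1.50, SE 0.17) and Pnpla2 (0.85, SE 0.11) rose in the authors' deposited table. Acyltransferases of synthesis went both ways, with Agpat3 (0.87, SE 0.10) higher and Agpat9 (-1.54, SE 0.15) and the epidermal enzyme Dgat2 (-0.82, SE 0.09) lower in the authors' deposited table. The endothelial-type lipase Lipg (-1.22, SE 0.16) fell in the authors' deposited table.

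Eicosanoid synthesis was rearranged within the prostanoid branch. The cyclooxygenase Ptgs1 (-1.53, SE 0.12) and the prostaglandin E synthase Ptges (-1.54, SE 0.09) fell in the authors' deposited table, whereas the inducible cyclooxygenase Ptgs2 (0.86, SE 0.15), the prostaglandin D synthase Hpgds and the reductase Ptgr1 rose. The degrading dehydrogenase Hpgd (3.38, SE 0.30, mean 86.3) and the aldose reductase Akr1b3 (2.53, SE 0.19) rose as well in the authors' deposited table. Cytosolic phospholipases of group 4 were all lower, Pla2g4b (-0.72, SE 0.18), Pla2g4d (-6.14, SE 1.08, mean 26.4), Pla2g4e (-2.40, SE 0.45, mean 33.2) and Pla2g4f (-1.65, SE 0.19), in the authors' deposited table, and the epidermal lipoxygenase Aloxe3 (-1.93, SE 0.14) fell with them. The list as a whole had 12 higher and 14 lower of 26 listed, and 9 and 9 with a mean of at least 100.

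Retinoid genes, which control vitamin A use, had 10 higher and 6 lower, and the balance turned to 3 and 6 with a mean of at least 100. Retinol dehydrogenases Rdh10 (0.98, SE 0.16) and Rdh11 (0.75, SE 0.09) rose, and Dhrs9 (-2.06, SE 0.18) and Dhrs7 (-2.44, SE 0.22) were lower in the authors' deposited table. The retinol transporter Stra6 (8.37, SE 1.25, mean 20.4) and the retinal dehydrogenase Aldh1a3 (3.63, SE 0.52, mean 27.6) were higher from low means in the authors' deposited table. Among drug-metabolising genes the aryl hydrocarbon receptor Ahr (1.54, SE 0.14) and the reductase Por (0.54, SE 0.10) rose in the authors' deposited table. Known Ahr targets did not follow 1 direction, with Cyp1b1 (0.50, SE 0.20) higher and the glucuronosyltransferase Ugt1a6a (-2.14, SE 0.11) lower in the authors' deposited table. The listed Ugt1a genes (-2.30 for Ugt1a7c to -2.13 for Ugt1a1 in the authors' deposited table) share their last exons, so they are close to 1 measurement. The list turned from 14 higher and 11 lower to 5 and 7 with a mean of at least 100.

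In metal handling 13 members were higher and 14 lower of 27 listed, and the groups within it differed in their counts. All 8 listed iron genes were lower, out of 25, where 50.6% of the whole table was higher. Haem genes were higher for 8 and lower for 3, out of 16, and copper and zinc genes for 5 and 3, out of 11. The metalloreductases Steap1 (-2.56, SE 0.23) and Steap2 (-1.78, SE 0.11) and the metallothionein Mt2 (-1.63, SE 0.28) fell, and the copper pump Atp7a (1.75, SE 0.16) and the haem enzyme Urod (1.00, SE 0.12) rose in the authors' deposited table. Glycosylation genes had 16 higher and 14 lower of 30 listed. Enzymes that start the sugar chain moved mostly 1 way: 7 of 9 listed Galnt genes were higher, among them Galnt10 (0.92, SE 0.12) and Galnt7 (0.70, SE 0.11) in the authors' deposited table. The branching enzyme Gcnt2 (1.44, SE 0.14), the sialyltransferase St3gal4 (2.23, SE 0.13) and the mucin Muc15 (2.15, SE 0.17) rose, and the fucosyltransferase Fut1 (-2.37, SE 0.19) and the galactosyltransferase B4galt4 (-1.58, SE 0.20) fell in the authors' deposited table.

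Cadherins, protocadherins and catenins were higher for 24 of 32 listed members and lower for 8. Cadherins themselves were higher for 6 and lower for 5, protocadherins for 15 and 2, and catenins for 3 and 1. With a mean of at least 100 the cadherins were divided, 4 and 4. In the authors' deposited table N-cadherin Cdh2 (2.16, SE 0.16) rose and P-cadherin Cdh3 (-0.52, SE 0.09) fell, while E-cadherin Cdh1 (0.54, SE 0.13) was higher by a smaller amount. The atypical cadherin Fat2 (-0.92, SE 0.18) and Pcdh7 (-1.27, SE 0.14) fell and Pcdh1 (1.58, SE 0.12) rose in the authors' deposited table. Catenins Ctnnd1 (0.81, SE 0.14), Ctnnb1 (0.33, SE 0.07) and Ctnna1 (0.28, SE 0.08) were higher by small amounts in the authors' deposited table. All 13 listed genes of the protocadherin beta cluster were higher, between 1.03 for Pcdhb14 and 2.04 for Pcdhb12 in the authors' deposited table. These single-exon copies lie side by side and resemble each other closely, so reads may be split between them and they do not count as separate measurements.

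Immunoglobulin-type adhesion molecules had 25 higher and 15 lower of 40 listed. Alcam (4.26, SE 0.17) rose most, followed by Cadm4 (1.65, SE 0.12), Vsig10 (1.57, SE 0.10), the nectin Pvrl4 (1.55, SE 0.10) and Icam1 (1.16, SE 0.15), a leukocyte ligand, in the authors' deposited table. The netrin receptor Unc5b (-1.29, SE 0.15), the embigin gene Emb (-1.18, SE 0.17) and the laminin receptor Bcam (-0.57, SE 0.15) fell in the authors' deposited table. Tetraspanins and related four-span proteins were higher for 20 of 27 and lower for 7. Tm4sf1 (5.08, SE 0.18) rose most and Cd82 (1.83, SE 0.14), Cd9 (0.95, SE 0.10) and Cd151 (0.72, SE 0.10) followed, with Mal (1.30, SE 0.12) and the tight junction protein Marveld3 (1.12, SE 0.10), whereas Lhfpl2 (-1.27, SE 0.21) and Myadm (-0.93, SE 0.12) fell in the authors' deposited table.

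Focal adhesion and hemidesmosome genes, which anchor cells to matrix, were mixed, 18 higher and 23 lower of 41 listed out of 60. Hemidesmosome genes were lower for 5 of 6, namely Plec, Itga6, Itgb4 (-0.67, SE 0.12), Dst (-0.56, SE 0.15) and Col17a1 (-0.55, SE 0.10) in the authors' deposited table, with the tetraspanin Cd151 as the exception. Among focal adhesion proteins Sorbs2 (1.99, SE 0.15), Nedd9 (1.20, SE 0.16), vinculin Vcl (0.72, SE 0.13) and integrin-linked kinase Ilk (0.79, SE 0.09) rose in the authors' deposited table. Focal adhesion kinase Ptk2 (-1.16, SE 0.09), talin 2 Tln2 (-2.21, SE 0.20) and the filamin Flna (-0.73, SE 0.12) fell, whereas the related kinase Ptk2b (0.90, SE 0.10) rose in the authors' deposited table.

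Calcium entry genes are of interest in a calcium shift. Calcium and cation channels and pumps had 17 higher and 7 lower of 24 listed. The store sensor Stim1 (1.29, SE 0.12), the channel Orai3 (0.95, SE 0.13) and the export pump Atp2b4 (2.19, SE 0.24) rose in the authors' deposited table. The mitochondrial uniporter Mcu (-1.27, SE 0.14), the ATP-gated channel P2rx3 (-2.45, SE 0.24) and the warmth and osmosensor Trpv4 (-0.70, SE 0.12) fell in the authors' deposited table. Potassium channels were rarely listed (11 of 69, the lowest share of any list), with Kcna4 (2.78, SE 0.15) and Kcnj15 (1.99, SE 0.17) higher and Kcnn4 (-1.48, SE 0.30) and Kcnf1 (-1.27, SE 0.15) lower in the authors' deposited table.

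Chloride, sodium and water channels were higher for 23 of 32 and lower for 9, and for 9 and 7 with a mean of at least 100. The pump regulator Fxyd3 (1.86, SE 0.10), Ano8 (1.82, SE 0.15) and Clca2 (1.65, SE 0.22) rose in the authors' deposited table. The volume-regulated anion channel is built from Lrrc8 subunits, and every listed subunit was lower in the authors' deposited table: Lrrc8a (-0.87, SE 0.18), Lrrc8b (-1.04, SE 0.30, mean 91.6), Lrrc8c (-0.80, SE 0.13) and Lrrc8d (-2.08, SE 0.12). Of ABC transporters and flippases 11 were higher and 12 lower. The flippase Atp10b (6.09, SE 0.38) had the steepest rise of the members with a mean of at least 100 in the authors' deposited table. The cholesterol exporters Abca1 (1.94, SE 0.19) and Abcg1 (1.04, SE 0.15) rose and the epidermal lipid transporter Abca12 (-1.77, SE 0.14) fell in the authors' deposited table. Multidrug exporters Abcc3 (-3.77, SE 0.20), Abcc4 (-2.03, SE 0.16) and Abcb1b (-1.75, SE 0.12) fell with it in the authors' deposited table.

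Within signalling cascades downstream of calcium and diacylglycerol, 19 of 33 listed genes were higher and 14 lower. The kinases Dapk2 (2.28, SE 0.11) and Camk2d (1.19, SE 0.12) and calmodulin Calm3 (0.78, SE 0.09) rose, and Nfatc2 (-1.25, SE 0.18), Dgkd (-1.21, SE 0.11) and Camkk2 (-0.92, SE 0.13) were lower in the authors' deposited table. The protein kinase C genes Prkca (0.39, SE 0.12), Prkcd (0.29, SE 0.09) and Prkch (0.35, SE 0.09), known as drivers of keratinocyte differentiation, were higher by small amounts and Prkce (-0.78, SE 0.17) lower in the authors' deposited table. Dual-specificity phosphatases, which switch off MAP kinases, rose for Dusp4, Dusp16 (2.16, SE 0.12) and Dusp1 (1.88, SE 0.14) and fell for Dusp9 (-1.09, SE 0.16) and Dusp12 (-1.25, SE 0.24) in the authors' deposited table. The MAP kinase Mapk3 (0.53, SE 0.08) was higher by a small amount in the authors' deposited table.

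Cyclic nucleotide genes had 17 higher and 13 lower of 30 listed, and 8 and 10 with a mean of at least 100. The cGMP-dependent kinase Prkg2 (-2.73, SE 0.12) had the steepest fall among members with a mean of at least 100, and Rapgef5 (-1.17, SE 0.14) fell too in the authors' deposited table. The regulatory subunit Prkar2b (0.98, SE 0.13) and the repressor Crem (0.63, SE 0.19) rose in the authors' deposited table.

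Apoptosis regulators went both ways, 19 higher and 12 lower of 31 listed. Of 6 listed survival genes 5 were higher, led by Mcl1 (1.44, SE 0.10) and Bcl2l1 (0.94, SE 0.08) in the authors' deposited table. Pro-apoptotic genes were divided, 8 higher and 9 lower, with a median of -0.41. Of the antagonists of the survival genes Bcl2l11 (2.56, SE 0.13), Bmf (2.42, SE 0.31, mean 63.5) and Pmaip1 (1.28, SE 0.12) rose in the authors' deposited table. The necroptosis effector Mlkl (-3.09, SE 0.14) fell steeply, in the same direction as its kinase Ripk3, and caspase genes were higher for 6 and lower for 2, with Casp6 (1.10, SE 0.18) higher and Casp2 (-0.60, SE 0.12) lower in the authors' deposited table.

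Autophagy genes were the most one-sided of the 47 lists. Of 55 members 37 were listed and 36 were higher, with a median of 0.76 against 0.26 over the whole table, and 35 of 36 at a mean of at least 100. Autophagy wraps cell contents in a double membrane and delivers them to lysosomes, and keratinocytes are known to clear organelles as they mature. All 15 listed initiation genes were higher in the authors' deposited table, among them the kinases Ulk1 (0.76, SE 0.14) and Ulk2 (1.26, SE 0.14), the scramblase Atg9b (1.23, SE 0.10) and the lipid kinase Pik3c3 (0.59, SE 0.10). Conjugation genes included the membrane tags Map1lc3b (1.38, SE 0.10), Gabarapl2 (1.39, SE 0.12) and Gabarap (0.91, SE 0.10), all higher, and Atg7 (-0.26, SE 0.11), the only listed member that was lower, in the authors' deposited table. Cargo receptors were higher as well: Calcoco1 (1.92, SE 0.12), the mitophagy receptors Bnip3 (1.62, SE 0.11) and Bnip3l (0.78, SE 0.10), Nbr1 (0.82, SE 0.09) and Sqstm1 (0.34, SE 0.11) in the authors' deposited table. The changes were small, 7 of 37 reaching 2-fold, and 18 members were not listed.

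**Figure D5:**
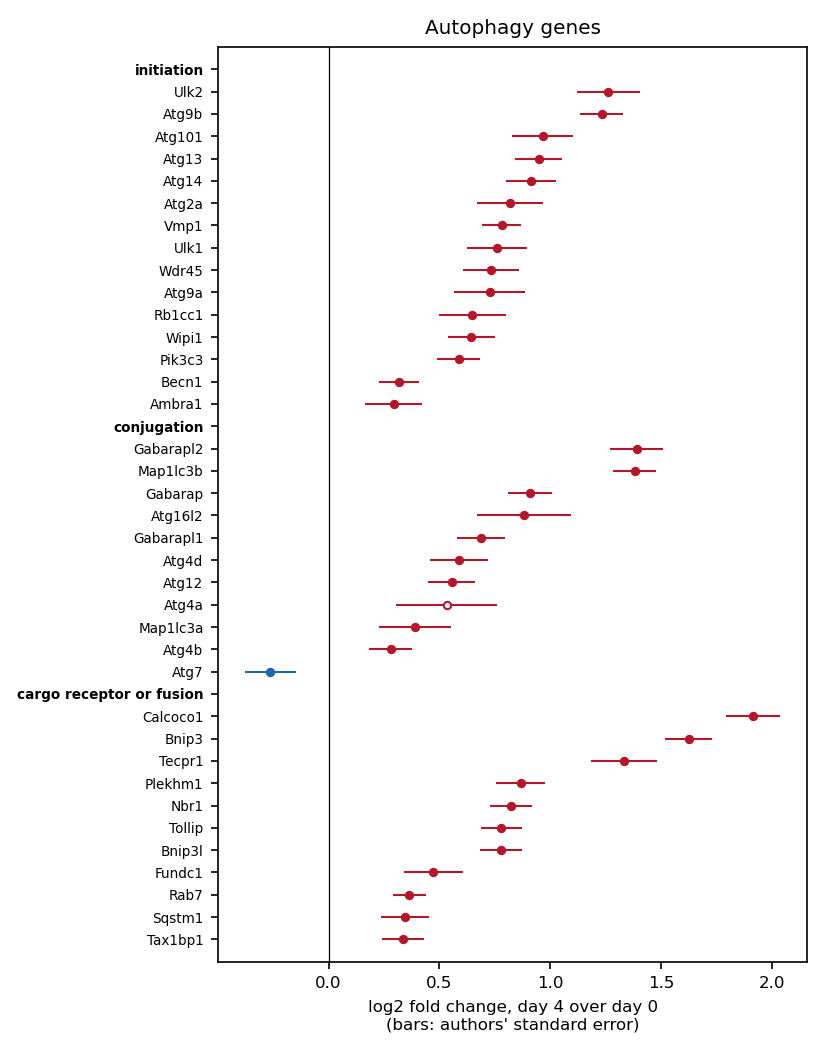
Listed autophagy genes grouped by step, at their log2 fold changes from the authors' deposited table with bars of 1 standard error. Red points are higher at day 4 and the single blue point is Atg7, and Atg4a, drawn open, has a mean normalized count under 100. Most members lie between 0 and 1.

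Antigen presentation genes were higher for 20 of 27 listed members and lower for 7. Class I genes B2m (1.19, SE 0.11), H2-K1 (1.08, SE 0.11) and H2-D1 (0.67, SE 0.11) and the loading factor Tapbp (1.56, SE 0.18) rose in the authors' deposited table. The class I trans-activator Nlrc5 (-1.45, SE 0.31, mean 73.9), the trimming enzyme Erap1 (-1.25, SE 0.14) and the immunoproteasome subunit Psmb10 (-1.25, SE 0.25, mean 78.8) fell in the authors' deposited table. Checkpoint ligands went apart, Vtcn1 (1.72, SE 0.22) higher and Cd274 (-1.75, SE 0.20) and Cd276 (-2.02, SE 0.16) lower in the authors' deposited table. H2-Q and H2-T genes are close copies, so single members of them are uncertain.

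The m6A files give a readout of the same genes that the expression table did not use, although the immunoprecipitated libraries were set against input libraries of the same days. A peak on either day was listed for 63.8% of listed family genes, against 65.7% of the whole table. In the methylation comparison 6.96% of 36796 sites were called. A positive fold change there was read as a gain of methylation at day 4, a direction not checked separately here. Listed expression genes held a called gain of methylation in 12.7% of cases and a called loss in 5.84%. Among lists with at least 10 listed members the share with a gain was highest for Sox and Fox factors (7 of 18 genes, 38.9%), semaphorins (5 of 16, 31.2%) and Eph and ephrin genes and ADAM proteases (4 and 4 of 13 each, 30.8%). Autophagy genes followed with 11 of 37 (29.7%) and the phosphatase and MAP kinase list with 11 of 38 (28.9%). A called loss was held by 5 of 37 autophagy genes (13.5%) and 1 of 38 of that other list (2.63%), against 5.84% above. The median mean normalized count of the listed autophagy genes was 1471, against 508.8 over the whole table. Plec alone held 11 gained sites. Among genes with a mean of at least 100 a peak was listed for 83.8% of family genes and 80.2% of the whole table, both above the shares at all levels, and the part of level in the gains was not tested.

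The same motifs were counted over the whole table. The AP-1 search pattern TGANTCA was in 6.4% of 3955 promoter entries of higher genes and 4.38% of 3695 of lower genes, against 6.75% of all entries. Among genes changed at least 2-fold it was in 8.63% and 5.26%, and the E-box in 5.5% and 8.07%. At any size of change the E-box was in 7.71% and 8.61% (all entries 6.02%), the TEAD motif in 11.7% and 10.4% (12.6%). The cAMP response element TGACGTCA was in 2.15% and 2.81% (1.55%) and the D-box in 0.48% and 0.271% (0.819%). Each motif was sought on both strands in the 250 bases before the start, and the shares were not tested.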

How the data were processed

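Input RNA of 3 day 0 and 3 day 4 libraries was compared in 1 deposited table, beside 2 m6A peak lists and a methylation table. Libraries were placed in groups by their titles. HISAT2 2.1.0, DESeq2 1.18.1 and the build mm10 are named in the submitters' processing notes, and the sources used here do not give the counting step. Columns of the deposited expression table, per the file headers, are a mean normalized count (used as a signal), a log2 fold change with standard error, a statistic (used as a score), and raw and adjusted p-values whose names are those of DESeq2. Each deposited peak has an enrichment score and a raw p-value, per the file headers, and the methylation table a log fold change of unstated base, used only for its sign as a score. The kit marks strand, per the labels' protocols. Whether counting used strand is not stated, so overlapping and antisense genes are uncertain.

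No model was fitted. Computed here were the number tested (adjusted p times rank over p), counts and medians over 47 family and 6 marker lists, motif matches in RefSeq promoter windows of GRCm38.p6 (the mm10 assembly) and exact (Clopper-Pearson) intervals. Members and lists were chosen with earlier results of these data known. Of the list symbols, 8 matched nothing and were left out, and 1096 of 1109 listed family genes had a RefSeq entry. The table holds 9 lines identical in value to another line, and 69 lines whose Ensembl identifier is on an earlier line. The latter were kept as separate genes. Named genes were the 10 largest statistics per direction and the 10 highest means among genes changed at least 2-fold, leaving out predicted genes. From each list came up to 4 members with a mean of at least 100 in its main direction and 2 in the other, or 3 of any level where fewer than 3 had that mean. Other genes named were chosen after their values were seen, and some listed genes are counted but not reported here by name. Alternatives were an adjusted p under 0.01, a minimum change of 2-fold, a minimum mean of 100, identical lines counted once, each list membership counted, peaks under a p of 1e-5 and windows of 100 bases. Counting and motif steps were tested on simulated data. Software was Python 3.11.15 with numpy 2.4.6, pandas 2.3.3, scipy 1.17.1 and matplotlib 3.10.9.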

Additional observations from a re-analysis of the deposited data

How the results depend on the processing

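No paired analysis was possible because the files hold no values per library, and leaving out a replicate or another normalization could not be run for the same reason. The table held 7978 genes, 3164 at 2-fold or more, and its share higher, 50.6%, was 49.5% at an adjusted p under 0.01, 53.3% at 2-fold and 46.3% at a mean of at least 100. Family genes numbered 1109, or 514 at 2-fold, and their share higher moved from 60.7% to 56.2% at that mean. A peak was listed for 83.8% of family genes and 80.2% of all listed genes at that mean. The balance of 8 family lists turned under at least 1 setting. With a mean of at least 100 the share higher was 46.7% for other receptor tyrosine kinases, 45.5% for antimicrobial genes, 33.3% for retinoid genes, 41.7% for the aryl hydrocarbon receptor list and 44.4% for cyclic nucleotide genes. At 2-fold it was 33.3% for nuclear receptors, 44.4% for the aryl hydrocarbon receptor list, 33.3% for glycosylation and 57.1% for potassium channels. At an adjusted p under 0.01 it was 42.1% for the aryl hydrocarbon receptor list and 55.6% for potassium channels. Of the genes named by rule 311 stayed listed at that p and 7 did not: Atg7, Flt4, Igf1r, Igfbp3, Kcnh2, Pecam1 and Snai1. In windows of 100 bases, where fewer bases are searched, the shares of all, higher and lower promoters were 3.17%, 4.22% and 4.47% for the E-box. For the D-box they were 0.374%, 0.152% and 0.0812%, and for the AP-1 search pattern TGANTCA 2.73%, 2.65% and 1.87%. For TEAD they were 4.71%, 3.54% and 3.38%, and for the cAMP response element 1.15%, 1.57% and 2.27%. In those windows the E-box was in 2 of 14 clock entries and TGANTCA in 5 of 14 clade B serpin entries. Depth per library is unknown, and the median SE of 1.31 below a mean of 10 limits single low genes.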

Other observations

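Besides the lists 21 families were counted by name, all picked after values were seen, and most of those described here were one-sided. Others were mixed, such as tubulins (5 higher and 4 lower), DHHC acyltransferases (5 and 7) and annexins (4 and 2). Placental genes were listed in these skin cells. All 11 listed pregnancy-specific glycoprotein genes were higher at day 4, out of 13 by that name. None had a mean of at least 100, and their median mean normalized count was 8.61. Of all listed genes with a mean under 10, 85% were higher. Values ran from Psg28 (3.07, SE 0.78, mean 8.61) to Psg20 (8.80, SE 1.22, mean 27.2) in the authors' deposited table. Of 28 prolactin family genes 8 were listed and all were higher, among them Prl8a9 (2.48, SE 0.14) and the close copies Prl2c2 (0.35, SE 0.11), Prl2c3 (0.41, SE 0.12) and Prl2c4 (0.41, SE 0.12) in the authors' deposited table. Psg25 to Psg17 are neighbours on chromosome 7, and reads may be split between copies, so these counts are not counts of separate events. Of 18 host genes of small nucleolar RNAs 10 were listed, and 9 of these were lower. Snhg12 (-2.45, SE 0.33), Snhg5 (-2.13, SE 0.19), Snhg1 (-2.05, SE 0.17) and Gas5 (-2.25, SE 0.17) were lower and Snhg18 (1.39, SE 0.17) higher in the authors' deposited table.

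Nuclear transport genes were lower without exception among those listed: 18 of 18 nucleoporins and 15 of 15 importins and exportins. Nup37 (-2.15, SE 0.17), Nup160 (-1.73, SE 0.11), Ipo5 (-1.53, SE 0.10) and Kpna2 (-1.53, SE 0.11) were among them in the authors' deposited table. Exosome subunits, which trim RNA, were lower for 7 of 7 listed, out of 10, led by Exosc8 (-1.86, SE 0.17) in the authors' deposited table. Cytosolic chaperonin subunits were lower for 8 of 9, such as Cct4 (-1.06, SE 0.11) and Cct6a (-0.97, SE 0.09) in the authors' deposited table. Membrane traffic genes leaned higher, with 25 of 31 listed Rab GTPases (out of 59) and 10 of 11 listed syntaxin and SNAP genes (out of 20). Among them were Rab27b (1.44, SE 0.18), Rab5b (1.06, SE 0.09), Stx19 (2.40, SE 0.23) and Snap29 (1.06, SE 0.11) in the authors' deposited table. All 11 listed S100 genes, out of 14, were higher, among them S100a11 (1.48, SE 0.09) and S100a7a (2.20, SE 0.26, mean 86.3) in the authors' deposited table. Only 5 had a mean of at least 100, and their median was 0.55, against 2.04 over all 11. Kinesins were lower for 20 of 28 listed, out of 42, most of them motors of cell division such as Kif11 (-2.72, SE 0.13) and Kif23 (-2.56, SE 0.13). The transport motors Kif5c (2.66, SE 0.17) and Kif3c (1.78, SE 0.14) were higher in the authors' deposited table.

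Neighbouring protein-coding genes that were all listed in 1 direction formed 11 runs of at least 6 genes. The longest held 10 genes on chromosome 7, ending in Mill2 and Pglyrp1, all higher. A run of 8 on chromosome 9, from Tmem115 to the hyaluronidase genes Hyal2 and Hyal1, was higher, and 7 on chromosome 3, from Lce3a to Crct1, were lower. How many such runs would arise by the density of listed genes alone was not tested. Long noncoding RNAs were higher for 126 of 182 listed (69.2%), at a median mean normalized count of 36.1. Protein-coding genes had a median of 544 and were higher for 50.6%. Of all listed genes with a mean under 100, 68.2% were higher, near the share of the noncoding RNAs.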
